A study of Danio rerio with 18 samples.

Results

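Most genes described here encode parts of the motile cilium: the central pair proteins hydin, spag6, spag16 and spag17, the tektins tekt1, tekt2 and tekt3, and the inner protein enkur. The calcyphosin-like capsla was read with them, and these data do not show where its protein lies. These 9 genes were chosen from a list of zebrafish symbols, and their rows were found by matching RefSeq accessions to those symbols. The members and the related gene lists below were chosen with earlier results of these data known. Counts of calls in them are therefore descriptions and not tests of the lists. Rows were found for 8 of the 9 genes, 1 accession each, among 32820 accessions in all, and spag17 was not analysed here. RNA was sequenced from pronephric duct, the collecting tubule of the embryonic zebrafish kidney, at 30 hours after fertilisation. The 8 actl6a libraries (genotype label actl6a knockdown) came from embryos given, at the 1-cell stage, a morpholino that blocks translation of actl6a, which encodes a subunit shared by SWI/SNF chromatin remodelling complexes. The 10 ctrl libraries came from embryos given a standard control morpholino, and their genotype is labelled WT. Both groups carried the Na,K-ATPase alpha1A4:GFP transgene, which marks the pronephros, and ducts were picked by their fluorescence after collagenase and trituration of 15 embryos, with about 10 fragments collected. It is not given if a library was made from 1 fragment or several, nor whether replicates came from separate injections, so p-values measure the spread between these libraries, which may be technical. The model is a knockdown in the whole embryo, not in the duct alone, and its protein loss is not measured in these data. Each count table holds a single group, so a batch that goes with the table and the morpholino cannot be told apart.

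A beating cilium is built on a ring of outer doublet microtubules around a central pair of singlets. Projections of the central pair touch the radial spokes and help set when the dynein arms fire, and proteins bound inside the doublets, tektins among them, stiffen and stabilise the wall of each tubule. In the zebrafish pronephros such cilia stand on multiciliated cells and on single-ciliated cells along the duct, and their beating drives fluid towards the cloaca. Transcript counts were read for these parts to ask whether those of the central pair and those of the doublet wall differed between actl6a and ctrl ducts.

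Library totals ran from 1731521 to 3393310 counts in the actl6a libraries, and from 1564673 to 3301873 counts in the ctrl libraries. Pairs of libraries within a group had Spearman correlations across accessions of 0.837 to 0.898 in actl6a and 0.826 to 0.907 in ctrl, where accessions are not independent replicates. Actl6a RNA itself (NM_173240.1) was at 138.6 ± 12.4 CPM (SD, n = 8) in actl6a libraries and 109.5 ± 15.6 CPM (SD, n = 10) in ctrl libraries (CPM, counts scaled to library size), and was called higher (edgeR adjusted p = 0.0137). A block of translation leaves the transcript in place, so this level does not check the knockdown. The marker atp1a1a.4, the Na,K-ATPase gene of the pronephros after which the transgene is named, ran from 1154 to 1694 CPM in actl6a and from 1309 to 2511 CPM in ctrl libraries. The pronephros markers pax2a and pax8 were not analysed here. Of 14462 accessions tested with edgeR's quasi-likelihood test at an adjusted p of 0.05, 16.4% were called, 8.52% lower and 7.90% higher in actl6a libraries. With library totals in place of TMM factors, which correct for library composition, 11.1% were lower and 5.89% higher, and the median log2 ratio of all tested accessions was −0.064.

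Of the 8 genes with rows, 6 had enough counts to be tested, and 2 of these, capsla and spag16, were lower in actl6a libraries, where 8.52% of all tested accessions were called lower. None of the 6 was called higher by edgeR, DESeq2 or limma-voom. At an unadjusted p under 0.05 edgeR gave 4 of the 6 as lower and 0 as higher, where 15.5% of all tested accessions were lower. The log2 ratio, actl6a over ctrl, was negative for all 6 tested, from −1.46 to −0.15 with a median of −0.61, against a median of 0.011 over all tested accessions. Whether the ducts held fewer ciliated cells or the cells held less of these RNAs cannot be told apart in such bulk samples.

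**Figure D1:**
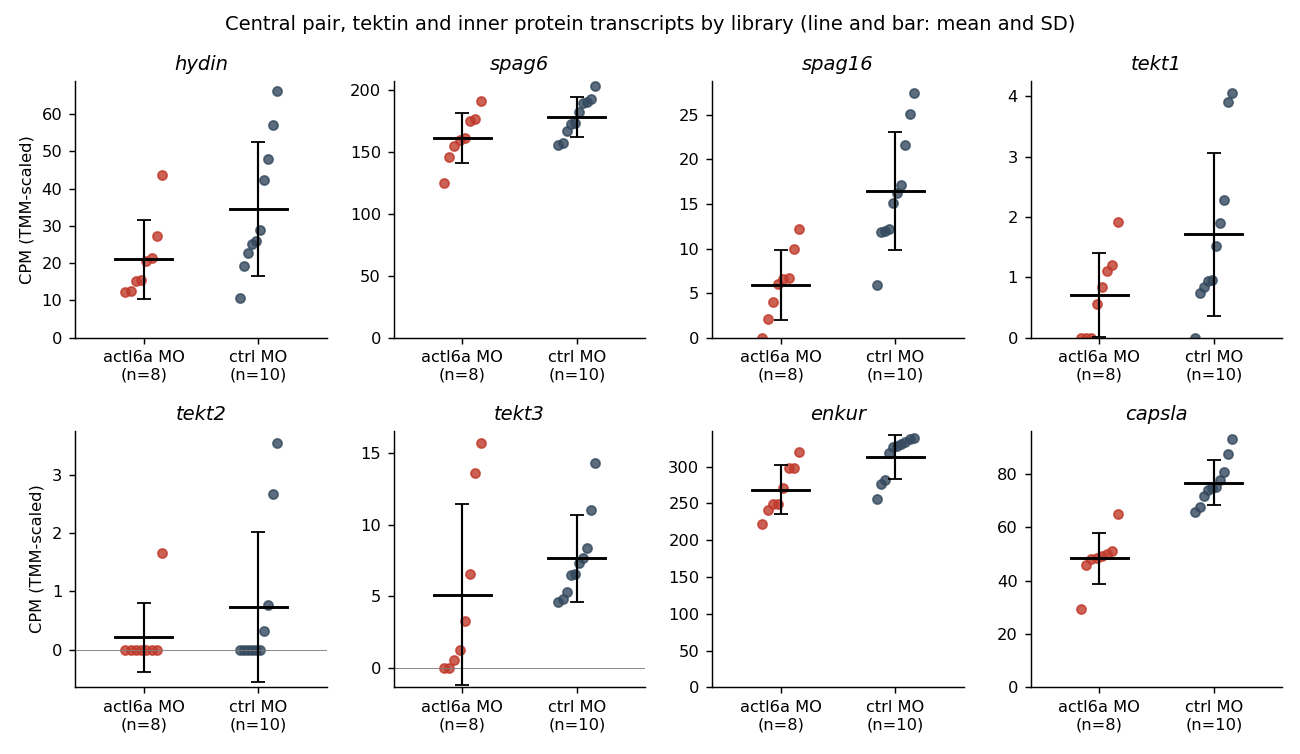
Each point is 1 library, with TMM-scaled CPM on the vertical axis, actl6a morpholino libraries (n = 8) on the left of each panel and ctrl morpholino libraries (n = 10) on the right. Thick lines are means and bars are SDs. For capsla the groups do not overlap, with 29.4 to 64.8 CPM in actl6a and 65.6 to 92.9 CPM in ctrl libraries, and the points of the other genes overlap.

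Hydin is a giant protein of a central pair projection, and its loss in mice leaves cilia that beat poorly. Counts of hydin (NM_001114415.2) ran from 24 to 146 in actl6a libraries and from 34 to 203 in ctrl libraries. Scaled, that was 12.2 CPM at the lowest, 17.9 at the median and 43.8 at the highest in actl6a libraries, against 10.6, 27.4 and 66.1 CPM in ctrl libraries. The groups overlapped over most of their range, and 7 of 8 actl6a libraries lay below the ctrl median. Means were 21.0 ± 10.5 CPM (SD, n = 8) in actl6a and 34.6 ± 17.9 CPM (SD, n = 10) in ctrl libraries. For hydin, edgeR gave a log2 ratio of −0.71 ± 0.333 (SE), with a 95% interval from −1.41 to −0.02 (adjusted p = 0.150), and it was not called.

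Spag6, the relative of the Chlamydomonas protein PF16, is an armadillo-repeat protein of the central pair. Its transcript (NM_001002210.1) was among the well counted ones, with 276 to 637 counts per library in actl6a and 280 to 623 in ctrl. The lowest, median and highest levels of spag6 were 125, 161 and 191 CPM in actl6a libraries and 156, 178 and 204 CPM in ctrl libraries. Most of the 2 ranges coincided, and 3 actl6a libraries lay below every ctrl library. The log2 ratio of spag6 was −0.15 ± 0.0808 (SE), with a 95% interval from −0.31 to 0.02 (edgeR adjusted p = 0.229). The interval leaves room for a small fall and for no change, but not for a fall as large as that of capsla below.

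Spag16 is the relative of Chlamydomonas PF20, a WD-repeat protein on the bridge between the central pair tubules. Its row (XM_003201481.5, matched without its version number) held few counts, from 0 to 33 in actl6a libraries and from 19 to 79 in ctrl libraries. In the actl6a libraries 1 to 8 the levels of spag16 were 5.97, 4.03, 2.10, 6.64, 12.2, 6.71, 9.89 and 0 CPM. In the ctrl libraries 1 to 10 they were 12.2, 11.9, 17.2, 16.3, 15.1, 5.92, 11.9, 21.7, 27.4 and 25.1 CPM. Every actl6a library lay below the ctrl median of 15.7 CPM, 3 lay below all ctrl libraries, and 7 of the 10 ctrl libraries lay above all actl6a libraries. The count of 0 in actl6a replicate 8 allows up to 3 counts, or 1.48 CPM of that library's total, and covers counting error only. Spag16 fell to 5.94 ± 3.95 CPM (SD, n = 8) in actl6a libraries, against 16.5 ± 6.62 CPM (SD, n = 10) in ctrl libraries. The log2 ratio was −1.46 ± 0.462 (SE), with a 95% interval from −2.43 to −0.50 (edgeR adjusted p = 0.0357).

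The call of spag16 rests on a small margin. Its adjusted p in edgeR's test was 0.0580, 0.0635 and 0.0653 without actl6a replicate 1, 2 and 3, and 0.0502, 0.0543, 0.0592 and 0.0566 without ctrl replicate 3, 8, 9 and 10. The log2 ratio stayed between −1.67 and −1.28 over the 18 fits that each left out 1 library. With no filter on low counts, where 3.05% of all accessions were called lower, its adjusted p was 0.0585. With replicates 1 to 8 of each group only it was 0.0974 (7.04% of all called lower).

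The tektins are coiled-coil proteins that run as filaments inside the A tubule of each doublet. Rows of tekt1 and tekt2 held almost no counts and were not tested. For tekt1 (NM_001007397.1) there were 14 counts over the 8 actl6a libraries, with 3 libraries at 0, and 41 counts over the 10 ctrl libraries, with 1 at 0. For tekt2 (NM_001017432.3) there were 3 counts, all in actl6a replicate 8, and 17 counts in 4 of the ctrl libraries, with the other 6 at 0. Levels in single libraries reached 1.92 CPM in actl6a and 4.05 CPM in ctrl for tekt1, and 1.66 CPM in actl6a and 3.55 CPM in ctrl for tekt2, so most lay near what 3 counts are worth, 0.884 to 1.92 CPM of a library total. A fit without a filter on low counts gave adjusted p of 0.375 for tekt1 and 0.414 for tekt2 in edgeR's test, and a difference was not detectable at this depth.

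For tekt3 (XM_696077.6, matched without its version number) the actl6a libraries were widely spread. The levels in the actl6a libraries 1 to 8 were 13.6, 15.7, 1.26, 3.32, 0, 0, 6.60 and 0.554 CPM. The ctrl libraries held 4.59 CPM at the lowest, 6.95 at the median and 14.3 at the highest. Thus 5 actl6a libraries lay below every ctrl library, while actl6a replicate 2 lay above all ctrl libraries and replicate 1 above all but the highest, and the coefficient of variation was 123% in actl6a and 39.4% in ctrl. For tekt3, edgeR gave a log2 ratio of −0.55 ± 0.657 (SE), with a 95% interval from −1.92 to 0.82 (edgeR adjusted p = 0.612). Actl6a replicates 1 and 2 also had the highest summed levels of neural markers in the study, 654 and 1121 CPM, of notochord markers, 615 and 529 CPM, and of muscle markers, 12540 and 10739 CPM. Replicate 1 was also the highest in blood markers, at 5378 CPM. The next highest in muscle markers were ctrl replicate 1 (9773 CPM), actl6a replicate 4 (9281 CPM) and ctrl replicate 10 (8546 CPM). They held tekt3 at 6.59, 3.32 and 14.3 CPM, the last being the highest ctrl level. Leaving out both actl6a replicates 1 and 2 was a choice made after the data were seen, under which 5.18% of all accessions were called lower. The log2 ratio of tekt3 was then −1.86 (edgeR adjusted p = 0.0817). It was −0.93 without replicate 1 alone and −1.03 without replicate 2 alone, and −0.36 and −0.34 without actl6a replicate 5 or 6, the 2 libraries at 0. Limma-voom with sample weights gave −1.64 (limma-voom adjusted p = 0.110). With tissue marker scores as covariates it was −2.30 (edgeR adjusted p = 0.192), and without the libraries rich in muscle markers −1.89 (edgeR adjusted p = 0.172). The part of those tissues in the level of tekt3 was not tested.

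Enkurin, the product of enkur, binds the inner wall of the doublets, and its loss disturbs left-right placement of organs in mice. Its transcript (NM_001305613.1) had 348 to 992 counts per library in actl6a and 424 to 1090 in ctrl. Levels of enkur were 223 CPM at the lowest, 259.8 at the median and 319 at the highest in actl6a libraries, against 257, 327 and 339 CPM in ctrl libraries. All 8 actl6a libraries lay below the ctrl median and 4 lay below every ctrl library, with a mean of 268 ± 33.5 CPM (SD, n = 8) in actl6a and 313 ± 29.8 CPM (SD, n = 10) in ctrl. The log2 ratio was −0.22 ± 0.0817 (SE), with a 95% interval from −0.39 to −0.05 (edgeR adjusted p = 0.0691), just short of the threshold. The adjusted p of enkur was below the threshold without actl6a replicate 2 (0.0354) or ctrl replicate 7 (0.0391), with library totals in place of TMM factors (0.0158), and in limma-voom with sample weights (0.0357).

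Capsla encodes a calcyphosin-like protein with EF hands, which bind calcium. It had the lowest adjusted p of the tested members. Counts of capsla (NM_001017676.1) ran from 46 to 216 in actl6a and from 110 to 276 in ctrl libraries. The levels in the actl6a libraries 1 to 8 were 49.1, 48.0, 49.9, 45.7, 29.4, 48.6, 64.8 and 50.9 CPM. The ctrl libraries ran from 65.6 through a median of 74.8 to 92.9 CPM. All 8 actl6a libraries lay below all 10 ctrl libraries, also with library totals, where the highest actl6a library was at 65.4 CPM and the lowest ctrl library at 66.9 CPM. Such a separation, all actl6a libraries below all ctrl libraries, was seen for 0.837% of all tested accessions. Capsla fell to 48.3 ± 9.59 CPM (SD, n = 8) in actl6a libraries, against 76.7 ± 8.43 CPM (SD, n = 10) in ctrl libraries. The log2 ratio was −0.66 ± 0.118 (SE), with a 95% interval from −0.91 to −0.42 (edgeR adjusted p = 0.00122). The adjusted p stayed at or under 0.0474 under all 31 alternatives run, and the log2 ratio between −0.74 and −0.59.

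Counts of 2 genes within a library can be divided without any scaling, so such ratios show whether members kept their proportions. Capsla held 0.184 counts per count of enkur at the median of the actl6a libraries (0.132 to 0.218), against 0.246 (0.200 to 0.291) in ctrl libraries, and 6 actl6a libraries lay below all ctrl libraries. Spag16 held 0.0253 counts per count of enkur at the median in actl6a (0 to 0.0546), against 0.0527 (0.0175 to 0.0859) in ctrl, and 7 of 8 actl6a libraries lay below the ctrl median. By contrast spag6 held 0.616 counts per count of enkur at the median in actl6a (0.458 to 0.793), against 0.587 (0.481 to 0.660) in ctrl, and 3 of 8 actl6a libraries lay below the ctrl median. Hydin held 0.0689 counts per count of enkur at the median in actl6a (0.0391 to 0.147), against 0.0977 (0.0313 to 0.203) in ctrl. The groups overlapped over most of that range, and 6 of 8 actl6a libraries lay below the ctrl median. These ratios are descriptions and were not tested.

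**Figure D2:**
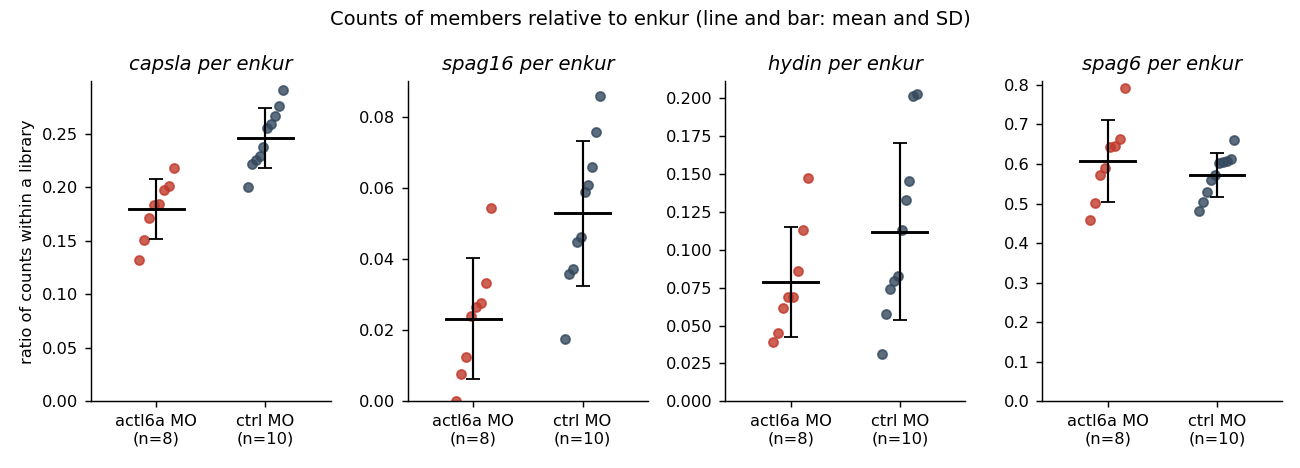
Each point is the count of 1 gene divided by the count of enkur in the same library, actl6a morpholino libraries (n = 8) on the left and ctrl morpholino libraries (n = 10) on the right, with means as thick lines and SDs as bars. The ratios of capsla and spag16 are lower in most actl6a libraries, while spag6 per enkur has medians of 0.616 in actl6a and 0.587 in ctrl. For hydin per enkur the groups overlap widely, with 6 of 8 actl6a libraries below the ctrl median.

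The same comparison was made against genes that lie outside the axoneme or beside the members. Set against the transcript of foxj1a, the transcription factor that switches on motile cilia genes, capsla had 0.133 counts per foxj1a count at the median in actl6a (0.0542 to 0.165) and 0.167 (0.148 to 0.218) in ctrl libraries. Enkur had 0.721 counts per foxj1a count in actl6a and 0.744 in ctrl at the median, with 4 of 8 actl6a libraries below the ctrl median. Per 1000 counts of the pronephros marker list, capsla had 10.4 counts at the median in actl6a (5.81 to 14.1) and 15.4 (11.0 to 18.8) in ctrl libraries. Spag16 had 1.35 counts per 1000 of that list in actl6a (0 to 2.40) and 2.70 (1.34 to 5.54) in ctrl libraries. Against this list, as against the whole library, all 8 actl6a libraries lay below the ctrl median for both genes. Against the list 5 lay below all ctrl libraries for capsla and 4 for spag16, and these ratios were not tested either. Against atp1a1a.4 alone, all 8 also lay below the ctrl median for capsla, but only 1 lay below all ctrl libraries. Per 1000 counts of the list, spag6 had 33.7 counts in actl6a and 34.3 in ctrl at the median. For spag6 4 of 8 actl6a libraries lay below the ctrl median, for hydin and enkur 6 of 8, and for tekt3 5 of 8.

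Capslb, another calcyphosin-like gene, was read beside capsla. Its level was 180.2 ± 18.5 CPM (SD, n = 8) in actl6a and 199 ± 22.8 CPM (SD, n = 10) in ctrl libraries, a log2 ratio of −0.15 with a 95% interval from −0.32 to 0.03 (edgeR adjusted p = 0.239). There were 0.279 counts of capsla per count of capslb at the median of the actl6a libraries (0.153 to 0.332) and 0.389 (0.317 to 0.475) in ctrl libraries, and 6 actl6a libraries lay below all ctrl libraries. Whether reads of the pair could be assigned to the wrong copy was not tested. Tekt4, a further tektin, was far better counted than tekt1, tekt2 and tekt3. It stood at 170 ± 19.5 CPM (SD, n = 8) in actl6a and 192 ± 26.6 CPM (SD, n = 10) in ctrl libraries, with a log2 ratio of −0.17 and a 95% interval from −0.37 to 0.02 (edgeR adjusted p = 0.205).

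Other genes of the central apparatus were read from a list of 25 genes, of which 13 had rows and 12 were tested. Of these 12, 5 fell and none was called higher by edgeR, DESeq2 or limma-voom (at an unadjusted p under 0.05 edgeR gave 6 lower and 0 higher, with 15.5% of all tested accessions lower), with a median log2 ratio of −0.27 against 0.011 over all tested accessions, 8.52% of which were called lower. The largest fall was that of kif9, a kinesin associated with the central pair, to 57.9 ± 9.84 CPM (SD, n = 8) in actl6a against 85.8 ± 6.80 CPM (SD, n = 10) in ctrl libraries. All 8 actl6a libraries lay below all ctrl libraries for kif9, as for 0.837% of all tested accessions, and its log2 ratio was −0.57 (edgeR adjusted p = 8.07e-04). Kif9 was named for its low p, so this separation adds no support of its own. The central apparatus genes cfap65 and cfap221 fell with log2 changes of −0.53 (edgeR adjusted p = 0.00421) and −0.36 (edgeR adjusted p = 0.0278). Ak7a and ak7b, which encode adenylate kinases of motile cilia, fell with changes of −0.31 (edgeR adjusted p = 0.00930) and −0.41 (edgeR adjusted p = 0.00311). The best counted genes that were not called were cfap99, at 109 ± 17.2 CPM in actl6a and 105 ± 16.7 CPM in ctrl libraries with a log2 ratio of 0.06, and mycbpap, with a log2 ratio of −0.21 (edgeR adjusted p = 0.229). A fall was thus called for 5 of the 12 central apparatus genes, while the log2 ratio was negative for 11 and positive for 1. A test of how their changes differ from each other was not run.

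Other inner proteins of the doublets were read from a list of 48 genes, of which 33 had rows and 29 accessions were tested. Of these 29, 13 fell and none was called higher by edgeR, DESeq2 or limma-voom (at an unadjusted p under 0.05 edgeR gave 14 lower and 0 higher). Over all tested accessions 8.52% were called lower, and 15.5% were lower at an unadjusted p under 0.05. The log2 ratio was negative for 20 of the 29 and positive for 9, from −0.75 to 0.59 with a median of −0.23. The lowest p was that of efcab6, an EF-hand protein of the doublet wall, which fell to 52.8 ± 9.01 CPM (SD, n = 8) in actl6a against 89.1 ± 12.6 CPM (SD, n = 10) in ctrl libraries. Its log2 ratio was −0.75 (edgeR adjusted p = 2.94e-04), and all 8 actl6a libraries lay below all ctrl libraries, as for 0.837% of all tested accessions. Efcab6 was also named for its low p, so its separation adds no support of its own. Ribc1, of the RIB43A family that lines the protofilament ribbon, fell with a log2 change of −0.60 (edgeR adjusted p = 0.00217). Cfap126 fell with −0.42 (edgeR adjusted p = 0.00611), and si:ch211-163l21.7, listed under its synonym cfap276, with −0.33 (edgeR adjusted p = 0.0106). Close to a ratio of 0 on the log2 scale, nme7, a nucleoside diphosphate kinase of the doublet wall, stood at 146 ± 7.75 CPM (SD, n = 8) in actl6a and 147 ± 17.4 CPM (SD, n = 10) in ctrl libraries, with a log2 ratio of −0.0097 (edgeR adjusted p = 0.947). Efhb, an EF-hand protein of the inner wall, had a log2 ratio of 0.0091 (edgeR adjusted p = 0.954), where both nme7 and efhb were chosen after their values were seen. When scores of 4 marker lists (muscle, blood, epidermis, neural) entered the edgeR fit as covariates, 1 of the 29 inner proteins and 0 of the 12 central apparatus genes were called lower, against 1.58% of all tested accessions.

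**Figure D3:**
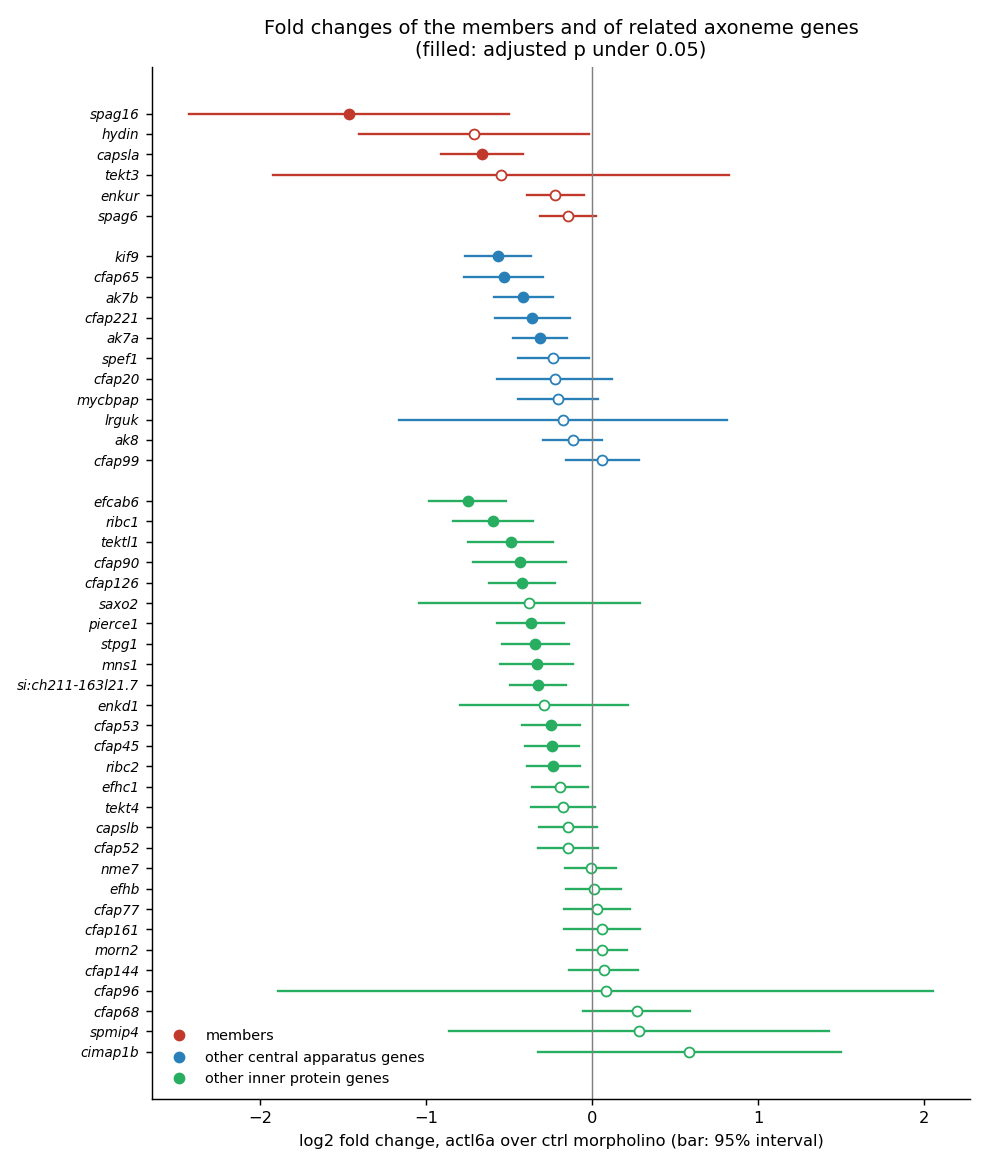
Points are log2 ratios, actl6a over ctrl morpholino, with 95% intervals, for the 6 tested members (red), and for other central apparatus genes (blue) and other inner protein genes (green) that are reported here. Filled points have an adjusted p under 0.05 in edgeR's test. Every filled point lies left of 0, and the widest intervals belong to thinly or unevenly counted genes such as tekt3, whose interval runs from −1.92 to 0.82.

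Regulators of ciliated cells were read from a list of 19 genes, of which 10 had rows and 8 accessions of 6 genes were tested. None of the 8 was called by edgeR or limma-voom, while 1 had an unadjusted p under 0.05 in edgeR and 1 was called lower by DESeq2. Over all tested accessions edgeR called 16.4% and limma-voom 17.3% in either direction, and DESeq2 called 10.2% lower. So few calls among 8 accessions do not set the regulators apart from other genes. Foxj1a (NM_001076706.2) was at 403 ± 74.1 CPM (SD, n = 8) in actl6a and 438 ± 50.4 CPM (SD, n = 10) in ctrl libraries, a log2 ratio of −0.12 with a 95% interval from −0.33 to 0.09 (edgeR adjusted p = 0.448). The cell cycle factors e2f4 and e2f5, used by multiciliated cells to multiply their basal bodies, had log2 ratios of 0.14 for e2f4 and of 0.17 and −0.44 for the 2 accessions of e2f5, with edgeR's adjusted p at 0.622, 0.310 and 0.252. Those of rfx7a and irx2a were −0.12 (edgeR adjusted p = 0.593) and −0.54 (edgeR adjusted p = 0.569). The nuclear receptor gene esrra, which acts in multiciliated cell formation in zebrafish, had log2 ratios of −1.78 (edgeR adjusted p = 0.0723) and −0.74 (edgeR adjusted p = 0.279) for its 2 accessions, which averaged 5.28 and 4.23 CPM in actl6a and 18.5 and 7.25 CPM in ctrl libraries.

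Members did not vary together closely across libraries. After each group's mean was taken out, the Pearson correlations of log2 CPM between pairs of the 6 tested members over 18 libraries ran from −0.45 (spag6 and tekt3) to 0.56 (enkur and capsla), with 0.45 for hydin and spag16. All pairs share their libraries' depth and scaling, and the values are descriptions. Against the mean standardised level of the 6 members, the accessions most alike among 11163 with a mean of 10 CPM or more were LOC100534741 (r = 0.85), LOC103911399 (r = 0.84), unc13d (r = 0.79), bbof1b (r = 0.79), XM_021470703.1 (r = 0.78), kat2b (r = 0.76), cfap20dc (r = 0.75), XR_002456210.1 (r = 0.73), zgc:194621 (r = 0.73) and XM_021476916.1 (r = 0.72). Group means were removed before these correlations, so they do not measure the response to the morpholino. In the comparison of groups unc13d, bbof1b and cfap20dc had log2 ratios of −1.08, −1.25 and −1.13, with adjusted p of 0.00763, 0.00350 and 0.00418 in edgeR's test. Those of LOC103911399, zgc:194621, XM_021470703.1 and XR_002456210.1 were −1.99, −0.55, −1.05 and −0.86, with edgeR's adjusted p at 0.00136, 0.0185, 0.0389 and 0.0443. For kat2b, LOC100534741 and XM_021476916.1 edgeR's adjusted p was 0.605, 0.428 and 0.0706.

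Transcripts listed as markers of tissues other than duct were counted in both groups, and some differed between them. Whether they came from other tissues or from duct cells was not tested. Of the tested accessions of each list, edgeR called 6 of 10 neural and 5 of 7 yolk and liver markers higher in actl6a libraries. It also called 3 of 18 epidermis markers and 1 of 6 notochord markers higher. Over all tested accessions edgeR called 7.90% higher and 16.4% in either direction, while DESeq2 called 10.9% higher and limma-voom 8.60%. A single call among 6 thus does not set the notochord markers apart. None of the 16 tested pronephros, 12 muscle, 14 blood or 5 floor plate markers was called by edgeR, where 1, 0, 1 and 1 of them had an unadjusted p under 0.05. Limma-voom called 4 blood markers higher, DESeq2 called 1 floor plate marker higher, and neither called a pronephros or muscle marker. Summed yolk and liver markers ran from 259 to 435 CPM in actl6a and from 5.85 to 267 CPM in ctrl libraries. Summed blood markers ran from 355 to 5378 CPM in actl6a and from 182 to 2136 CPM in ctrl libraries. Summed neural markers ran from 87.7 to 1121 CPM in actl6a and from 35.5 to 156 CPM in ctrl libraries. Summed epidermis markers ran from 2541 to 9465 CPM in actl6a and from 2378 to 4488 CPM in ctrl libraries. Summed pronephros markers ran from 3922 to 5352 CPM in actl6a and from 4434 to 6476 CPM in ctrl libraries. The floor plate of the spinal cord also bears motile cilia, and its summed markers ran from 67.8 to 306 CPM in actl6a and from 41.6 to 266 CPM in ctrl libraries, with shhb and foxa at 5.65 CPM or less in every library. Of its defining genes shha ran from 4.50 to 83.2 CPM in actl6a and from 0.306 to 61.1 CPM in ctrl libraries. The part of these tissues in the falls of cilia genes was not tested. Some neural and epidermis markers were themselves called higher in actl6a libraries. A fit with their scores therefore cannot fully separate tissue from morpholino, and the fits that follow are descriptions. The tissue scores used as covariates covered muscle, blood, epidermis and neural markers, but not yolk and liver or notochord markers. With tissue scores as covariates the log2 ratio of capsla was −0.73 (edgeR adjusted p = 0.0474), and that of spag16 was −1.34 (edgeR adjusted p = 0.263). The SE of spag16 was then 0.666, against 0.462 without the scores. Without the 6 libraries with over 5000 CPM of muscle markers, a choice made after the data were seen under which 4.29% of all tested accessions were called lower, capsla had a log2 ratio of −0.66 (edgeR adjusted p = 0.0340) and spag16 of −1.50 (edgeR adjusted p = 0.154), while 2 of the 29 inner proteins were called lower.

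**Figure D4:**
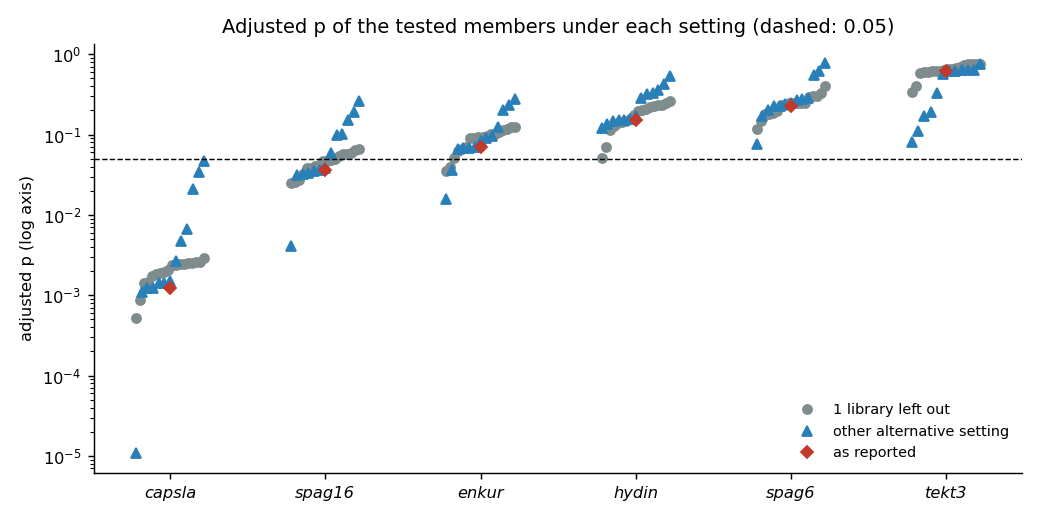
Adjusted p of the 6 tested members on a log axis, as reported (red), with 1 library left out (grey) and under the other alternative settings (blue), with a dashed line at 0.05. Capsla stays below the line throughout, spag16 and enkur lie on both sides of it, and hydin, spag6 and tekt3 stay above it.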

How the data were processed

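The authors deposited whole-number counts per RefSeq accession, not normalised, in 1 table per group. The submitters' processing notes name cutadapt, FastQC, STAR, featureCounts, edgeR and GRCz11, without roles or versions, and whether counting used strand or molecular identifiers is not given in the sources used here. An accession absent from 1 table (4245 of 32820) was taken as 0 there. Of the accessions 10573 matched a symbol by their version, 9629 without it and 13 by protein accession, in a RefSeq table of another assembly that was used for names only. Accessions with a symbol held 87.6% of the counts, and the other 12605 had none, so further accessions of the genes named here may be among them.

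edgeR 4.0.16 in R 4.3.3 was run on all accessions: filterByExpr kept 14462 with 98.2% of the counts, followed by TMM factors and a two-sided quasi-likelihood test with group as the only term, adjusted by Benjamini-Hochberg with a threshold of 0.05. The SE is the absolute log2 fold change over the square root of F, and log2 CPM used a prior count of 2. The biological coefficient of variation was 47.8%. Alternatives used DESeq2 1.42.0, limma 3.58.1, other factors and filters, tissue marker covariates, a replicate block, summed accessions, and fits without each library.

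The members and gene lists were chosen with earlier results of these data known. Named genes were the 9 members, actl6a and atp1a1a.4, of each related list the 5 called with the lowest p in each direction and the 2 not called with the highest level, each tested regulator, and the 10 accessions most alike, where a gene that the rule names is not reported here. Protein and promoter sequences were not used here.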

Additional observations from a re-analysis of the deposited data

Results flagged for a closer look

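Member values on the log2 CPM scale formed 16 groups, 8 genes in each of 2 conditions. The gap of 1 library to its group was large against the range for capsla and for tekt2. Chance gives such a gap in about 1 group in 20, a rate that does not apply to tekt2, where the other values are tied. The level of capsla in actl6a replicate 5 was 29.4 CPM, from 46 counts, while the other 7 actl6a libraries ran from 45.7 to 64.8 CPM. On the log2 scale that gap was 0.557 of the range, against a cut-off of 0.526. Without that library the log2 ratio of capsla, actl6a over ctrl, was −0.59 (edgeR adjusted p = 8.65e-04). The level of tekt2 in actl6a replicate 8 was 1.66 CPM, from 3 counts, while the other 7 actl6a libraries were at 0, so any count above 0 would have stood apart. A count of 0 allows up to 3 counts, so this value does not lie beyond what the libraries at 0 allow.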

How the results depend on the processing

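Of the tested members, capsla kept its call and its direction under all 31 alternatives, and hydin, spag6 and tekt3 had no call in any (30 alternatives for tekt3, whose mean lies below the 10 CPM filter). Spag16 lost its call under 13 of 31, 7 of them fits without 1 library, and enkur gained one under 4. No member was called higher under any alternative, and no log2 fold change of a tested member changed sign. That of tekt3 ranged from −2.30 to −0.34. The count of members called lower ranged from 1 to 3 over the fits that left out 1 library, where 6.56% to 9.23% of all tested accessions were lower. It was 1 when low counts stayed unfiltered (3.05% of all accessions called lower), with tissue marker scores as covariates (1.58%) and with replicates 1 to 8 only (7.04%). The count was also 1 without actl6a replicates 1 and 2 (5.18%) and without the 6 libraries rich in muscle markers (4.29%), both chosen after the data were seen. Accessions called in all numbered 2375, but 467 with tissue marker scores and 1086 without the 6 muscle-rich libraries. Other central apparatus genes called lower numbered 0 with tissue marker scores. Other inner proteins called lower numbered 1 with tissue marker scores, 6 without actl6a replicates 1 and 2, and 2 without the muscle-rich libraries. The shares of all accessions called lower in these fits are those given above. The cause of these shifts was not tested.

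Both groups number their replicates, but nothing in the labels pairs them. Deviations of same-numbered libraries correlated from −0.12 to 0.32 across accessions, over 0.1 for 1 of 8 pairs, and 0 actl6a libraries correlated best with the ctrl library of their own number. A replicate block over replicates 1 to 8 gave 1058 accessions called in either direction, 560 (4.02%) of them lower, with 1 member and 6 inner proteins lower. The same libraries without the block gave 1850 accessions, 982 (7.04%) of them lower, with 1 member and 11 inner proteins lower. Capsla was that member (edgeR adjusted p = 0.0208), and spag16 had 0.191. At this depth no difference was detectable for tekt1 and tekt2.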

Other observations

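The accession of a related gene, picked out from its values, was counted either well or hardly at all. The meig1 accession NM_001013470.1, of a gene for a small protein of the doublet wall, had at least 1017 counts in 1 actl6a library and 5 ctrl libraries, and 4 counts or fewer in the other 12, with nothing between. It was not kept by the filter on low counts, so it was not tested. The other meig1 accession had 13 counts or fewer in every library. How reads shared between accessions of a gene were counted is not given in the sources used here, so a count of 1 accession may not stand for its gene. In all 16 accessions of the tables had 100 counts or more in at least 3 libraries and 4 counts or fewer in every other library, again with at least 3 of these, and 0 of the members was among them.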
